A study of Homo sapiens with 4 samples.

Results

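The genes of the NKG2D ligands were compared between ELK3 knockdown and sh control arrays of Hs578T, a human breast cancer cell line with mesenchymal features. These are the genes MICA, MICB, ULBP1, ULBP2, ULBP3, RAET1E, RAET1G and RAET1L. They were chosen by name, with earlier results of these data known. Every probe set that the platform annotation pairs with exactly 1 of these symbols was taken, which gave 20 of 44988 single-symbol probe sets and 8 of 18132 genes. Each probe set was kept apart because the members resemble each other and can share probes. ULBP4, ULBP5 and ULBP6 are other names of RAET1E, RAET1G and RAET1L.

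The study has 4 arrays, 2 from Hs578T cells carrying a lentiviral shRNA against ELK3 (knockdown 1 and 5) and 2 from Hs578T cells labelled ELK3 sh control (control 1 and 2). ELK3 encodes an ETS family transcription factor. All cells grew in the same medium with serum, antibiotics and insulin, and the viral transduction was done with protamine sulfate. The labels name no control sequence and leave unsaid what the array numbers mean (separate shRNA constructs, clones or dishes), so the p-values measure the spread between these arrays, which may be technical. All values are RMA log2 signals, in which 1 unit is a doubling, and each difference is knockdown minus control.

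NKG2D is an activating receptor on natural killer cells and on cytotoxic T cells. Its ligands are distant relatives of MHC class I chains that healthy cells carry sparsely and that stressed, infected or transformed cells can place on their surface. MICA and MICB are transmembrane proteins with an alpha-3 domain. The RAET1 and ULBP proteins lack that domain: ULBP1, ULBP2, ULBP3 and RAET1L are held by a glycosylphosphatidylinositol (GPI) anchor, and RAET1E and RAET1G have a transmembrane segment. Proteases can cut ligands from the cell, so an RNA level is not a surface level.

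The arrays formed separate pairs over all 49293 probe sets, with r = 0.996 between the knockdown arrays, 0.998 between the control arrays and 0.902 to 0.904 between groups. ELK3 itself was lower, at 8.09 and 7.92 in the knockdown arrays and 10.05 and 10.07 in the control arrays by its brighter probe set (difference -2.06, limma adjusted p = 2.42e-06). Both knockdown arrays lacked much of the mesenchymal signal of the labelled line. All 12 mesenchymal markers were lower, with a median difference of -6.69, and the log2 of their summed signal was 13.75 and 13.84 in knockdown, against 16.98 and 16.92 in control. Of 7 epithelial and luminal markers, 3 were higher and 0 lower, where 29.5% and 21% of all genes were higher and lower, with log2 sums of 14.14 and 13.82 in knockdown against 11.09 and 11.17 in control. The 3 were the keratin genes KRT19 (62.0-fold), KRT8 (50.8-fold) and KRT18 (4.59-fold). EPCAM and CDH1, which define epithelial cells, lay between 3.67 and 4.50 on all arrays, at the dim end. Of 7 NK cell markers and 5 other leukocyte markers, 0 passed, and PTPRC, the common leukocyte marker, lay between 3.60 and 3.78. Not all were dim: group means ran from 4.13 to 6.78 over the NK cell markers and from 3.62 to 7.07 over the other leukocyte markers. The probe sets of HLA-C, a polymorphic gene, went in opposite directions, from -2.39 to 5.97. That both groups are Hs578T rests on the labels and was not tested, and if they were different lines every difference given here would be one between lines. The part of this wider difference between the groups in the results on the ligands was not tested either.

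Among the 20 member probe sets, MICA and ULBP2 contributed the falls and MICB and ULBP3 the rises. At an adjusted p under 0.05, limma called 4 probe sets higher and 4 lower, where 27% and 22.1% of all probe sets on the array were higher and lower. The 8 calls are 40% of the members, against 49.2% of all probe sets, so the number of calls does not set the members apart. With a change over 2-fold as well, 5 remained (25%), against 16.6% of all probe sets, and with fold over 1.5 and an unadjusted p under 0.05 there were 6 (30%), against 30.5%. The median difference of the members was -0.067, beside -0.015 over all probe sets. The groups did not overlap for 16 of the 20, and for 74.5% of all probe sets. In bulk RNA, fewer cells that carry a transcript and less of it per cell cannot be told apart.

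**Figure D1:**
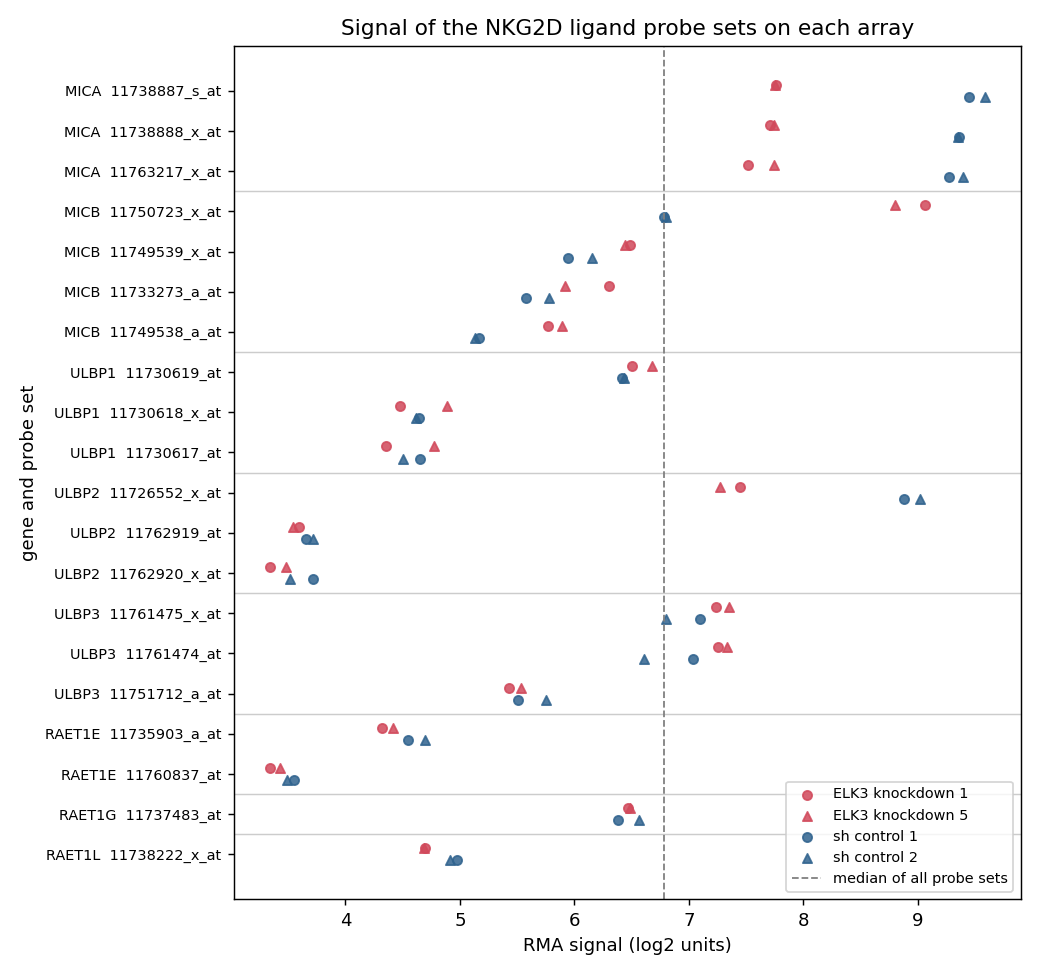
RMA signal (horizontal axis, log2 units) of each of the 20 NKG2D ligand probe sets (rows, grouped by gene) on the 2 ELK3 knockdown arrays (red, upper in each row) and the 2 sh control arrays (blue, lower). The dashed line is the median over all probe sets, 6.79. All 3 MICA probe sets and 1 of ULBP2 lie to the left of their control values, and MICB 11750723_x_at lies to the right.

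MICA, a transmembrane ligand encoded beside HLA-B, was lower in both knockdown arrays by all 3 of its probe sets. Probe set 11738887_s_at read 7.76 and 7.75 in the knockdown arrays and 9.45 and 9.59 in the control arrays. Probe set 11738888_x_at read 7.71 and 7.74 in knockdown and 9.36 and 9.36 in control. The groups were far apart: the gap between the highest knockdown and the lowest control value was 1.52 to 1.69 units, and replicates of a group differed by at most 0.23. The mean of 11738887_s_at was 7.76 ± 0.0035 in knockdown and 9.52 ± 0.097 in control (SD, n = 2 each), a 3.39-fold fall (difference -1.76, SE 0.09, limma adjusted p = 5.30e-06). The 95% intervals of the 3 probe sets ran from -1.97 at the lowest to -1.44 at the highest. They read the same gene, so they are not independent evidence. Their names all mark possible cross-hybridisation, and no other MICA probe set is present to check them.

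MICB, the closest relative of MICA, was higher in both knockdown arrays by its 4 probe sets, though by very different amounts. Probe set 11750723_x_at read 9.07 and 8.80 in knockdown and 6.78 and 6.80 in control. Its means were 8.93 ± 0.19 in knockdown and 6.79 ± 0.014 in control (SD, n = 2 each), a 4.41-fold rise (difference 2.14, SE 0.12, adjusted p = 7.27e-06). The other 3 probe sets showed much smaller differences. Probe set 11749538_a_at read 5.77 and 5.89 in knockdown and 5.17 and 5.13 in control, a difference of 0.68 (SE 0.11, adjusted p = 0.00179). Probe set 11749539_x_at read 6.49 and 6.44 in knockdown and 5.94 and 6.16 in control, a difference of 0.42 (SE 0.12, adjusted p = 0.0273). That last call was lost without knockdown replicate 1 (0.39, adjusted p = 0.0587) or without control replicate 1 (0.31, adjusted p = 0.176). Probe set 11733273_a_at, at 6.30 and 5.92 in knockdown and 5.58 and 5.78 in control, did not pass (difference 0.43, adjusted p = 0.0590), but passed at 0.62 without knockdown replicate 5. The size of the MICB rise therefore rests on the probe set, with 95% intervals of 1.86 to 2.42 for 11750723_x_at and 0.41 to 0.94 for 11749538_a_at. The names of 11750723_x_at and 11749539_x_at mark possible cross-hybridisation, and those of 11749538_a_at and 11733273_a_at do not.

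MICA and MICB lie in the same stretch of the MHC class I region, and the DNA before the starts used here is alike. The RefSeq promoter table gives 1 start for each of them, which lies inside the annotated span of the gene, so transcripts that begin earlier have other upstream DNA. Over 250 bases before that start, 210 of 254 aligned positions were identical (82.7%), beside 44.3% to 49.8% for the 16 pairs of a MICA or MICB window with a RAET1 or ULBP window. The 2 windows are shown because these genes went in opposite directions. Both come from RefSeq on GRCh38.p14, plus strand, chr6:31403345-31403594 for MICA and chr6:31497895-31498144 for MICB. Capitals mark, 5′ to 3′, matches on either strand to GAANNTTC (the core of a heat shock element, bound by HSF1), to GGGCGG (a GC box, bound by SP1) and to CCGGAA (an ETS site).
MICA: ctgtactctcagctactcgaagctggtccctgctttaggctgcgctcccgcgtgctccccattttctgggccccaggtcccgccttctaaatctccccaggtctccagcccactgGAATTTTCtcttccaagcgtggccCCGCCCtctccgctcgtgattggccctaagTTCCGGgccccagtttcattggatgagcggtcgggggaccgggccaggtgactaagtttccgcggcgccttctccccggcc
MICB: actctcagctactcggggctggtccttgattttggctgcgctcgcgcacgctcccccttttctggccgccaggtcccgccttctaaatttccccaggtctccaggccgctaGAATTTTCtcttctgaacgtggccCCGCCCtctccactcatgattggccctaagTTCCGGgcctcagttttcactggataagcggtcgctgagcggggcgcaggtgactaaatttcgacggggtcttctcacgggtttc
Each window held 1 match to each of these motifs, in the same order. A search for CCAAT, which capitals do not mark, gave 2 matches in MICA and 1 in MICB. The ETS match began 81 bases before the start in MICA and 85 bases before it in MICB. Among 35116 RefSeq promoter windows of the same length, 14.5% held CCGGAA, 5.78% GAANNTTC, 42.6% GGGCGG and 32% CCAAT. The capitals do not overlap each other. A match describes letters only and shows no binding.

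ULBP2, a GPI-anchored ligand, was lower by 1 of its 3 probe sets. Probe set 11726552_x_at read 7.45 and 7.27 in knockdown and 8.88 and 9.02 in control, and its name marks possible cross-hybridisation. Its means were 7.36 ± 0.13 in knockdown and 8.95 ± 0.097 in control (SD, n = 2 each), a 3.01-fold fall (difference -1.59, SE 0.11, adjusted p = 1.96e-05). The other ULBP2 probe sets were near the floor of the array in every sample. Probe set 11762919_at read 3.59 and 3.54 in knockdown and 3.66 and 3.72 in control (difference -0.12, adjusted p = 0.220). Probe set 11762920_x_at read 3.34 and 3.48 in knockdown and 3.72 and 3.52 in control (difference -0.21, adjusted p = 0.108), and it passed at -0.31 without control replicate 2. Both lay below the 3rd percentile of all probe sets by their mean over the 4 arrays, where a difference can hardly show.

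Further probe sets carry ULBP2 together with near-identical genes and are assigned to no single gene here. The annotation pairs 1 of them with ULBP2 and RAET1L, and 3 with ULBP2, RAET1L and RAET1G. All 4 were lower, by differences between -1.38 and -1.50 (adjusted p between 2.28e-05 and 8.26e-05). Their signals lay between 6.07 and 8.52 in the knockdown arrays and between 7.68 and 9.82 in the control arrays. Which of the genes they read cannot be told apart. The remaining shared probe set, paired with ULBP3, ULBP1 and RAET1K, stood at -0.14 and did not pass (adjusted p = 0.360).

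RAET1L and RAET1G, the genes that share those probe sets, did not pass by the single-symbol probe set that each has. RAET1L read 4.70 and 4.69 in knockdown and 4.98 and 4.91 in control (difference -0.25, SE 0.10, adjusted p = 0.0667). Both knockdown values were the lower ones, and RAET1L passed when the intensity trend was left out of the fit (adjusted p = 0.0468). RAET1G read 6.47 and 6.48 in knockdown and 6.38 and 6.57 in control, with both knockdown values inside the control range. Its difference was 0.0036, with a 95% interval of -0.28 to 0.29 (adjusted p = 0.985). The interval for RAET1L ran from -0.48 to -0.025, not adjusted for the number of probe sets. RAET1L lay at the dim end on every array, where a fall like that of the shared probe sets may be understated.

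ULBP3, another GPI-anchored ligand, had 1 probe set past the threshold and 2 that were not. Probe set 11761474_at read 7.26 and 7.33 in knockdown and 7.04 and 6.61 in control (difference 0.47, SE 0.16, adjusted p = 0.0414). The groups did not overlap, but the control arrays differed from each other by 0.43, about as much as the groups did. Without control replicate 2 the difference was 0.25 and no longer passed (adjusted p = 0.272). Probe set 11761475_x_at read 7.24 and 7.35 in knockdown and 7.10 and 6.80 in control (difference 0.34, adjusted p = 0.0704), and passed without knockdown replicate 1 (0.40) or without control replicate 1 (0.49). Probe set 11751712_a_at went the other way, at 5.43 and 5.53 in knockdown and 5.51 and 5.75 in control (difference -0.15, adjusted p = 0.368).

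ULBP1, the GPI-anchored ligand whose transcription responds to ATF4, did not pass by any of its 3 probe sets. Probe set 11730619_at read 6.51 and 6.68 in knockdown and 6.42 and 6.43 in control (difference 0.17, SE 0.12, 95% interval -0.11 to 0.45, adjusted p = 0.283). In the other 2 probe sets the control values lay between the knockdown values, with differences of 0.049 and -0.014. Knockdown 1 was the lower and knockdown 5 the higher array in both, at 4.47 and 4.89 for 11730618_x_at and 4.35 and 4.77 for 11730617_at. Those 2 probe sets lay at the dim end on every array, so a fall as large as that of MICA could not be measured in full by them.

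RAET1E, a transmembrane ligand, lay at the dim end on every array and did not pass. Probe set 11735903_a_at read 4.32 and 4.41 in knockdown and 4.55 and 4.69 in control (difference -0.26, SE 0.10, adjusted p = 0.0726). Probe set 11760837_at read 3.34 and 3.43 in knockdown and 3.55 and 3.49 in control (difference -0.14, adjusted p = 0.156). Both knockdown values were below both control values in each, but 11760837_at is among the dimmest 1% of probe sets.

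**Figure D2:**
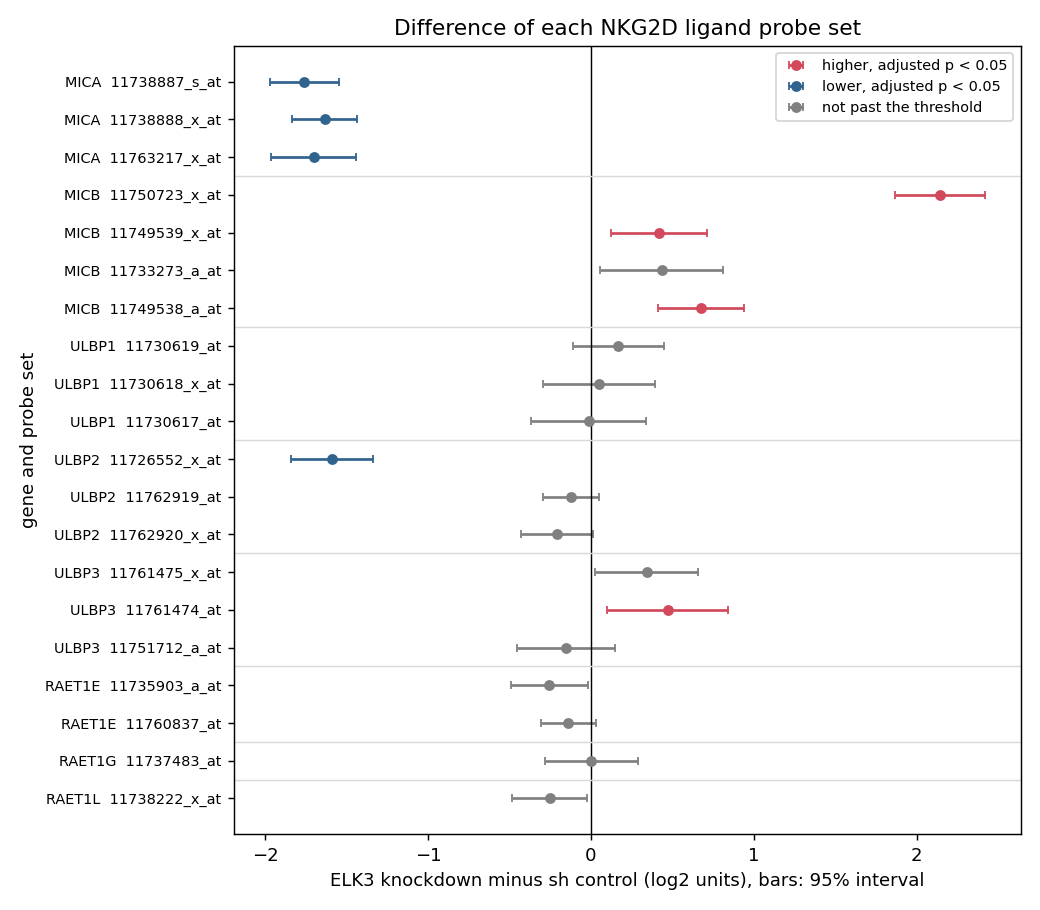
Difference between the mean of the 2 ELK3 knockdown arrays and the mean of the 2 sh control arrays (horizontal axis, log2 units) for each NKG2D ligand probe set, with its 95% limma interval. Red points passed as higher, blue as lower and grey did not pass; 3 MICA probe sets and 1 of ULBP2 lie between -1.76 and -1.59, and MICB 11750723_x_at stands at 2.14.

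By kind of anchor the calls were mixed. Of the 10 probe sets of transmembrane members, 3 (all MICA) were lower and 3 (all MICB) higher. Of the 10 probe sets of GPI-anchored members, 1 (ULBP2) was lower and 1 (ULBP3) higher. Over all probe sets on the array, 22.1% were lower and 27% higher. By signal, of the 7 member probe sets at or above the median level of 6.79, 6 passed, where 68.2% of all such probe sets did. Of the 13 below it, 2 passed, where 30.2% of all such probe sets did. Values near the floor of an array understate a change, and for 7 member probe sets the mean over all arrays was below the 30th percentile (5.43). Falls larger than that of MICA 11738887_s_at were measured for 3.71% of all probe sets, and rises larger than that of MICB 11750723_x_at for 2.19%.

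**Figure D3:**
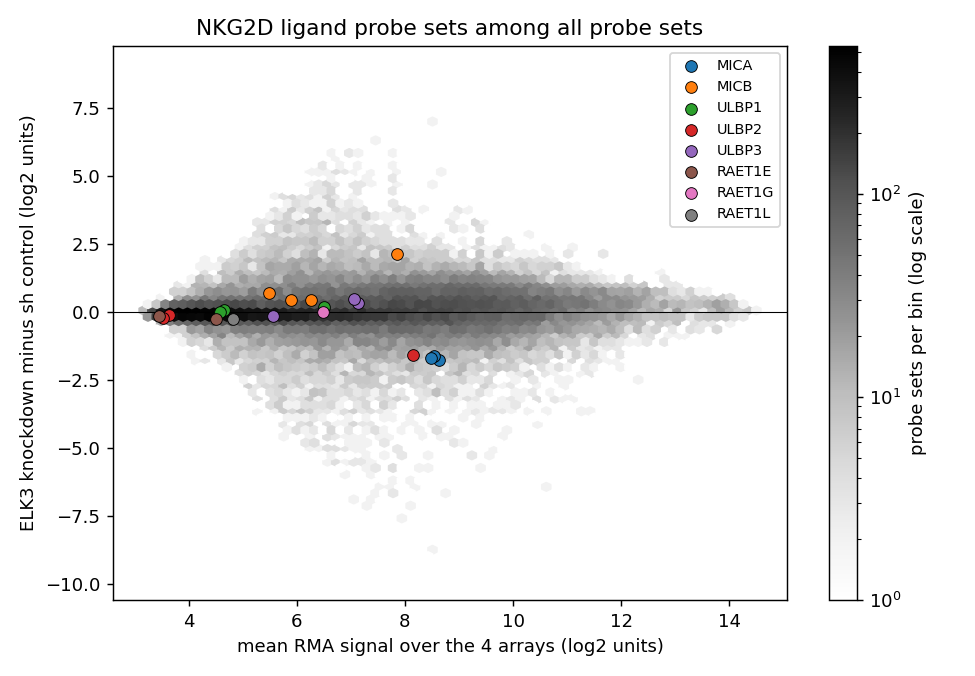
Difference, knockdown minus control (vertical axis, log2 units), against the mean signal over the 4 arrays (horizontal axis, log2 units) for all 49293 probe sets (grey bins, darker with more probe sets on a log scale) and the NKG2D ligand probe sets (coloured by gene). Most member probe sets below 6.79 lie near a difference of 0, and the 5 furthest from 0 have mean signals above it.

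The upstream windows of ULBP2 and ULBP1, neighbours on chromosome 6 of which the first fell by its bright probe set and the other did not pass, are shown for comparison. Capitals mark matches on either strand to TGACG, the half-site of a cyclic AMP response element bound by factors of the ATF and CREB family, and to GGGCGG. The windows come from RefSeq on GRCh38.p14, plus strand, chr6:149941764-149942013 for ULBP2 and chr6:149963693-149963942 for ULBP1.
ULBP2: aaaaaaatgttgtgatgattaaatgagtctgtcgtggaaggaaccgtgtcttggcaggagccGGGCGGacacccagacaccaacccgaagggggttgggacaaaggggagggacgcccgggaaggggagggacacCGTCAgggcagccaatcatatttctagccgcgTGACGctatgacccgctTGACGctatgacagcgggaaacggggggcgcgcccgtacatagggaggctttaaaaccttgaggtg
ULBP1: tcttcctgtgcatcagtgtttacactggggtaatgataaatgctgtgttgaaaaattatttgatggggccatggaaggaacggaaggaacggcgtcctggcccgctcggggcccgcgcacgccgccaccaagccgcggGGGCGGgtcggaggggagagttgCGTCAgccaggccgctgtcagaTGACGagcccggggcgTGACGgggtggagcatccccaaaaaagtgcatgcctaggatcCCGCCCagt
Each held 3 matches to TGACG, and 21.2% of all windows held at least 1. These were the only member windows with a match to TGACG, out of 10 windows for the 8 genes, since RAET1E has 3 annotated starts. Neither held CCGGAA or GAANNTTC, which among the members were found in the windows of MICA and MICB alone. The ULBP2 and ULBP1 windows were 46.5% identical over a global alignment, inside the range given above for pairs between the loci.

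Of the genes that act on NKG2D ligands, 6 of 7 for shedding fell. By the brightest probe set of each gene, 24 of 40 genes on 7 lists passed, 8 higher and 16 lower, where 50.5% of all 18132 genes passed, 29.5% higher and 21% lower. Among 7 genes for proteases and a chaperone that release ligands from the cell, 6 fell and 0 rose, with a median difference of -1.08, beside -0.010 over all genes. MMP2, a gelatinase, read 8.04 and 7.005 in knockdown and 11.99 and 12.02 in control, a 22.3-fold fall (adjusted p = 1.54e-05). MMP14, the membrane protease that can cut MICA, read 7.68 and 7.89 in knockdown and 12.07 and 11.92 in control, an 18.5-fold fall (adjusted p = 1.94e-07). ADAM9, a membrane metalloprotease, was 3.10-fold lower. For these 3 genes all probe sets passed as lower. MMP9, the exception of the list, stood at 0.33 (adjusted p = 0.0625). It passed as higher with no intensity trend, with quantile normalization and with the mean of all probe sets, which made the list 6 lower and 1 higher.

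Genes for inhibitors of those proteases fell as well. Of 4 measured, 3 were lower and 0 higher, with a median difference of -1.01, where 21% of all genes were lower and 29.5% higher. TIMP3, a matrix-bound inhibitor of ADAM17, read 7.13 and 7.01 in knockdown and 12.48 and 12.47 in control, a 42.3-fold fall (adjusted p = 4.94e-08). TIMP2 and TIMP1 were 2.38-fold and 1.72-fold lower. For TIMP1, 1 of its 3 probe sets did not pass, at -0.072. RECK, a membrane-anchored inhibitor, did not pass by its brightest probe set (-0.34, adjusted p = 0.0777), but 1 of its 3 probe sets was lower, at -0.91. With the mean of all probe sets, 4 inhibitors were lower.

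Regulators of ligand transcription and splicing went both ways: 3 of 10 rose, 3 fell, and the median difference was -0.018. Over all genes, 29.5% rose and 21% fell. MYC read 9.77 and 9.56 in knockdown and 11.31 and 11.28 in control, a 3.09-fold fall (adjusted p = 5.63e-06). Of the genes known to act on human ULBP1, these were higher: ATF4, a stress-response transcription factor, by 0.57 (13.23 and 13.23 in knockdown, 12.66 and 12.67 in control, adjusted p = 3.52e-05), and RBM4, a splicing factor, by 0.96 (8.69 and 8.69 in knockdown, 7.71 and 7.75 in control, adjusted p = 9.09e-05). The other RBM4 probe set stood at -0.14 and did not pass. SP1, which binds GC boxes, was higher by 0.51. SP3, which binds the same boxes and also acts on ULBP1, was lower (-0.46, adjusted p = 0.00593), as were 5 of its 6 probe sets. NFKB1, an NF-kappa-B subunit, was lower (-0.50). HSF1, the heat shock factor, did not pass (-0.18, adjusted p = 0.136).

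DNA damage kinases, which can induce NKG2D ligands, numbered 5, of which 2 rose and 1 fell (median difference 0.18). Over all genes, 29.5% rose and 21% fell. ATM did not pass by its brightest probe set (0.15), but 2 of its 5 probe sets were lower, at -0.55 and -0.45. CHEK2 read 9.97 and 9.83 in knockdown and 7.77 and 7.76 in control, a 4.39-fold rise (adjusted p = 1.96e-06), and its other probe set rose by 1.12. ATR was 2.00-fold lower (8.41 and 8.13 in knockdown, 9.25 and 9.30 in control, adjusted p = 2.37e-04). CHEK1 rose by 0.29, a call lost without control replicate 1 (0.31) or 2 (0.27), and its mean over 6 probe sets was at 0.035. Without knockdown replicate 5, 4 kinases were higher and 1 lower; without control replicate 1 or control replicate 2, 1 was higher.

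Heat shock genes were divided, with 2 of 7 higher and 2 lower (median difference -0.098), where 29.5% and 21% of all genes were higher and lower. HSP90AA1 and HSPH1 did not pass by their brightest probe sets, but 1 of 2 and 2 of 8 of their probe sets were lower. HSPA1B read 13.30 and 13.23 in knockdown and 10.93 and 10.75 in control, a 5.38-fold rise (adjusted p = 4.96e-07). Its probe set is named for cross-hybridisation, and the near-identical HSPA1A has no single-symbol probe set, so those genes cannot be told apart. HSPB1, a small heat shock protein, rose by 0.35 and BAG3, a co-chaperone, stood lower at -0.26. The number lower was 5 without knockdown replicate 1, and 1 without control replicate 1 or 2, and BAG3 lost its call without either control replicate. With no intensity trend in the fit 0 were lower, and BAG3 had an adjusted p of 0.0743.

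Genes that attach GPI anchors, which ULBP1, ULBP2, ULBP3 and RAET1L need, gave 1 higher and 1 lower of 5 (median difference -0.057). Over all genes, 29.5% were higher and 21% lower. PIGS read 11.51 and 11.33 in knockdown and 10.52 and 10.61 in control (difference 0.85, adjusted p = 9.78e-05). GPAA1 was at -0.25 (adjusted p = 0.0289), and without control replicate 1 or without control replicate 2 it did not pass (-0.23 and -0.27). PIGK did not pass by its brightest probe set (0.18), but 4 of its 5 probe sets were lower, down to -1.09. HCST, an adaptor through which NKG2D signals in immune cells, and TYROBP, an adaptor on the same list, stood at -0.13 and -0.15. Neither passed. KLRK1, the gene of NKG2D itself, has no single-symbol probe set and was not read.

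**Figure D4:**
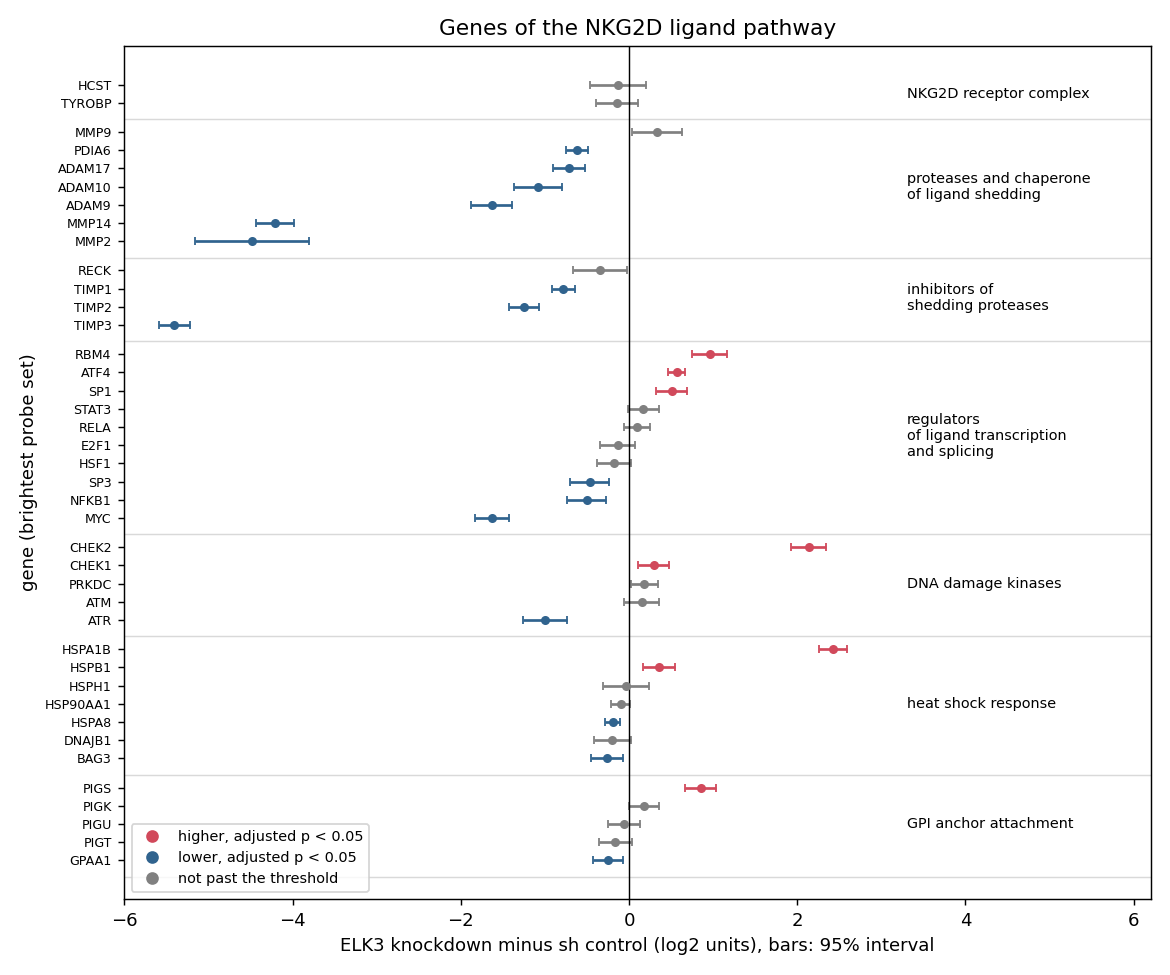
Difference, knockdown minus control (horizontal axis, log2 units, with 95% limma intervals), for the brightest probe set of 40 genes on 7 lists of the NKG2D ligand pathway (rows, grouped by list). Red points passed as higher, blue as lower and grey did not pass; 6 of 7 genes for shedding and 3 of 4 for its inhibitors are blue.

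The genes next to the ligands on chromosome 6 were read by their brightest probe sets, 5 measured genes on each side of a locus and any measured gene within it. Around MICA and MICB, 4 of 11 neighbours fell and 0 rose, where 21% of all genes fell and 29.5% rose. HLA-C and HLA-B, on the side of MICA, were at -2.39 and -1.60, but their direction rests on the probe set: the 3 probe sets of HLA-C ran from -2.39 to 5.97 and those of HLA-B from -1.60 to 0.0068. TCF19 was at -0.83 and ATP6V1G2 at -0.93. HCP5, the measured gene between MICA and MICB, read 6.004 and 6.09 in knockdown and 6.12 and 6.28 in control and did not pass (-0.15, adjusted p = 0.337).

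Around the RAET1 and ULBP genes, 8 of 10 neighbours rose and 0 fell, where 29.5% of all genes rose. PPP1R14C, a phosphatase inhibitor gene next to ULBP3, read 9.76 and 9.70 in knockdown and 5.86 and 6.10 in control (difference 3.75, adjusted p = 5.42e-07). PLEKHG1 was higher by 2.79, KATNA1, a microtubule-severing subunit, by 1.17 and MTHFD1L, a mitochondrial folate enzyme, by 1.05. AKAP12, NUP43, PCMT1 and LATS1 were higher by 0.41 to 0.94. LATS1 lost its call without knockdown replicate 5 (0.38) or control replicate 2 (0.33). LRP11 and IYD, on either side of the cluster, did not pass (-0.0085 and -0.029). ULBP2, inside the same cluster, was lower by 1 of its 3 probe sets, whose name marks possible cross-hybridisation.

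**Figure D5:**
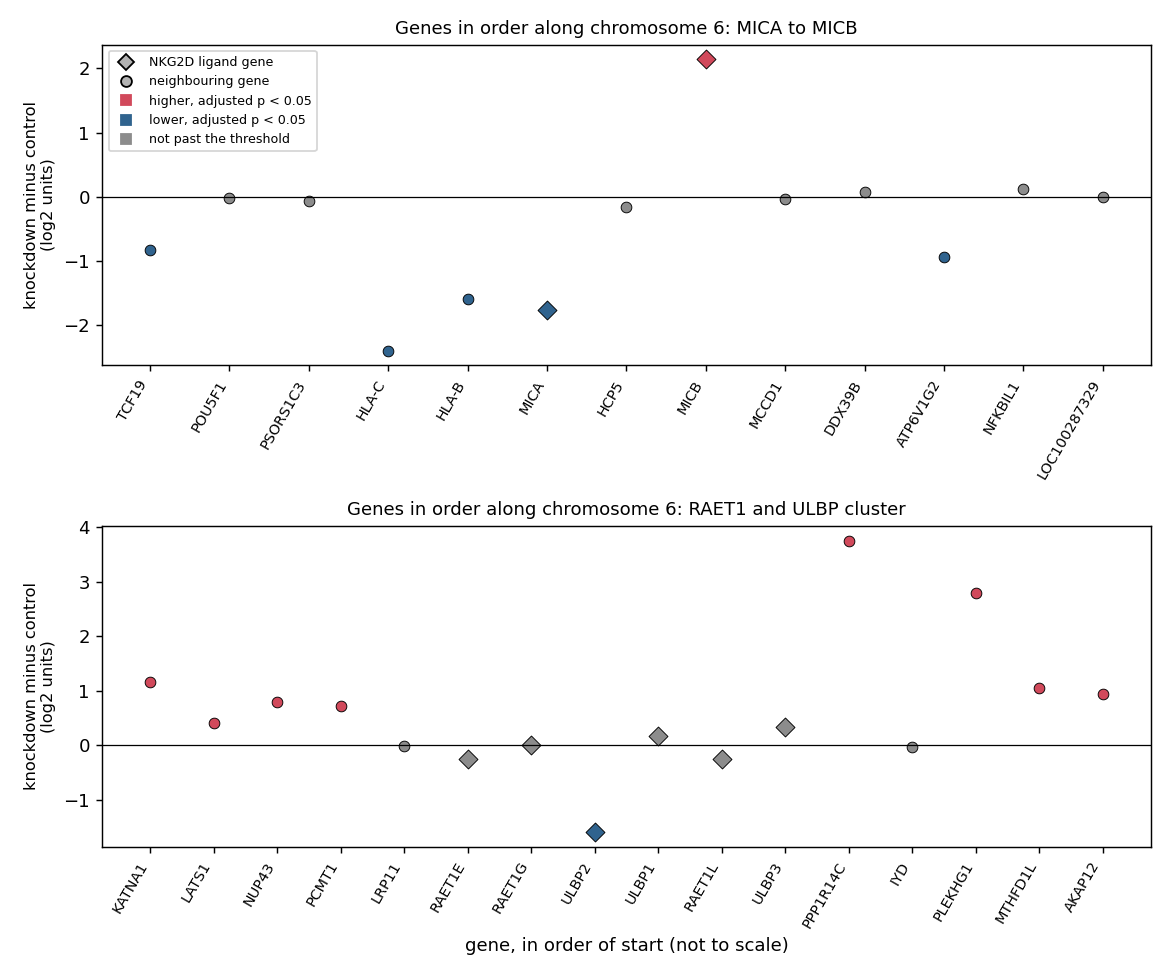
Difference, knockdown minus control (vertical axis, log2 units), of the brightest probe set of each NKG2D ligand gene (diamonds) and of its measured neighbours (circles), in order along chromosome 6 and not to scale. In the upper panel MICA is at -1.76 and MICB at 2.14; in the lower panel ULBP2 is at -1.59 while 8 of 10 neighbours are above 0 and passed.

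The genes whose pattern over the 4 arrays was most like that of a member were found by the Euclidean distance between values centred on each probe set's own mean. For MICB 11750723_x_at these were CDS1, a phospholipid synthesis enzyme, PLAGL2, a zinc finger factor, and RDH10, a retinol dehydrogenase, at distances of 0.035, 0.038 and 0.061 units. For MICA 11738887_s_at they were COQ10B, a coenzyme Q binding protein, PPP2R3A, a phosphatase subunit, and FLRT3, an adhesion protein, at 0.048, 0.051 and 0.052. Many others were almost as close: 78 probe sets lay within 0.2 units of the MICB pattern and 202 of the MICA pattern.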

How the data were processed

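The deposited table holds log2 signals of 49293 probe sets on 4 one-colour Affymetrix PrimeView arrays. Per the submitters' processing notes the values are RMA output; its version and settings are not given in the sources used. The array medians lay between 6.76 and 6.80. Arrays have no read depth, so their number limits the precision.

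The platform annotation gave 1 symbol for 44988 probe sets and several for 1832; 2473 are unnamed here. All probe sets were fitted with limma 3.58.1 in R 4.3.3 (eBayes with an intensity trend, group as the only factor, two-sided, Benjamini-Hochberg over all probe sets, adjusted p under 0.05), with 2 residual degrees of freedom and a median prior of 4.95. An exact permutation test of 2 arrays against 2 cannot give a p below 0.333.

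The fit was tested on simulated data in 3 designs. The first, with shuffled raw variances, missed the recovery set for it. The second, with each probe set's own estimated variance, gave more false calls than the nominal rate. The third, with variances drawn from limma's own prior, passed; it was chosen after the others had failed and shares the model's assumptions. Calls near the threshold are therefore less certain than their adjusted p, among them ULBP3 11761474_at and MICB 11749539_x_at.

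Listed genes were read by their brightest probe set, by mean signal on the 4 arrays. The text names all member probe sets, up to 3 genes past the threshold per list plus exceptions, neighbours past the threshold plus examples, and the 3 most alike genes of the largest rise and fall. SP1, SP3, NFKB1, PIGK, ATM, HSP90AA1, HSPH1 and the markers were named after their values were seen. The members and lists were chosen with earlier results of these data known. Promoters were aligned globally with Biopython 1.88 (match 1, mismatch -1, gap opening -2, extension -0.5). Python 3.11.15 with matplotlib 3.10.9 made the figures. The alternatives are given in the closing section.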

Additional observations from a re-analysis of the deposited data

How the results depend on the processing

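No paired analysis was possible because the groups compared share fewer than 2 replicate numbers. The calls of the 3 MICA probe sets, ULBP2 11726552_x_at and 2 MICB probe sets (11750723_x_at and 11749538_a_at) held under every alternative that kept them: no intensity trend, robust moderation, quantile normalization, subtracting array medians, dropping dim probe sets, single-symbol probe sets only, and leaving out each array, where the lone array of a group is assumed to vary like the other group. Leaving out probe sets named x, s or a kept 6 member probe sets of 5 genes, none of MICA, and left 1 called (1 higher, 0 lower, against 4 and 4). Leaving out those named x or s, an alternative chosen after seeing the data because names with a mark transcripts of 1 gene, kept 10 and left 2 called (2 higher, 0 lower). At an adjusted p under 0.01, or with fold over 1.5 and unadjusted p under 0.05, 2 were higher. With 1 probe set per gene, 3 of 8 genes passed, 1 higher and 2 lower. By the brightest probe set of each gene in the main fit, 50.5% of all genes passed, 29.5% higher and 21% lower. For the name filters, the 0.01 threshold and the fits without an array, no share of all probe sets is given. Those counts therefore have no background. Leaving out each array gave 8 or 9 calls. Some member probe sets that had not passed changed sign, and the others kept theirs. Leaving out each array gave -0.16 to 0.26 for ULBP1 11730618_x_at, -0.22 to 0.20 for ULBP1 11730617_at and -0.092 to 0.099 for RAET1G. Quantile normalization gave 0.018 for ULBP1 11730617_at and -0.015 for RAET1G, and subtracting array medians gave -0.018 for RAET1G. The cause was not tested. Of the 40 pathway genes, 14 kept a probe set without those named x, s or a, and 8 passed (3 higher, 5 lower, against 8 and 16); 33 kept one without x or s, with 4 higher. There each gene was read from its brightest remaining probe set, a choice made after seeing that keeping only the original probe sets left 4 and 11 genes called. Without names in x, s or a, the regulators, kinases and GPI genes had 0 lower and the heat shock and GPI genes 0 higher. With no intensity trend, 0 heat shock genes were lower. The shedding list gained 1 higher gene with no trend, with quantile normalization and with the mean of all probe sets.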
